A study of Eptesicus fuscus and Canis lupus familiaris and Equus caballus with 4 samples.

Results

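The miR-99a, let-7 and miR-125b cluster of the big brown bat Eptesicus fuscus was read from a list of hairpin candidates deposited for 1 small RNA library of adult testis. Its members are every row of that list that lies on contig ALEH01062116.1 or on contig ALEH01062117.1, whatever its reads. There were 4 such rows among 762 bat candidates. They are Candidate_135, called miR-99a-5p here, Candidate_136 on the other arm of the same hairpin, Candidate_134, called let-7, and Candidate_80, called miR-125b-5p.

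The series compared small RNA of testis from dog, horse and 2 bat individuals, with 4 libraries in all, and 3 lists were analysed here, deposited with 1 bat, 1 dog and 1 horse library. The animals were adults and no treatment or genotype is given. No list of its own was analysed here for the other bat individual, and the sources used here do not say whether reads of that individual were pooled into the bat list. Bat counts and shares below are therefore those of the list, which may hold 1 individual or both. There were no replicates, libraries were not tested against each other and no p-values are printed. The testis label was not checked against cell markers, and whole tissue does not show which cells the reads came from.

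MicroRNAs are cut from hairpin transcripts as a short duplex, and usually one arm of it is kept in a silencing complex, where bases 2 to 8, the seed, find the target messenger RNAs. MiR-99a, let-7 and miR-125b belong to ancient families that sit side by side in many animals and can be made from 1 primary transcript. In the worm Caenorhabditis elegans, let-7 and the miR-125 relative lin-4 time development, and in mammals let-7 restrains growth and stem cell genes. In mouse spermatogonia, let-7 miRNAs take part in differentiation. MiR-99 and miR-100 are known to act on the mTOR and insulin-like growth factor pathways.

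The 3 hairpins are shown because their sequence, arm and spacing carry the results. They are printed 5′ to 3′ in DNA letters as deposited, with listed mature sequences in capitals, so the miR-99a hairpin has capitals on both arms.
miR-99a hairpin: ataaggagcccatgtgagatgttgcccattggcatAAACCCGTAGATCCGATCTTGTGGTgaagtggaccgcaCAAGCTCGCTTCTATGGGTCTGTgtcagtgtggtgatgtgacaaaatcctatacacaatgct
let-7 hairpin: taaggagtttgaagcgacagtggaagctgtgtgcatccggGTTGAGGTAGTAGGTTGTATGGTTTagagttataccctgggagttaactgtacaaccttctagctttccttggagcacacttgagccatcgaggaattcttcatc
miR-125b hairpin: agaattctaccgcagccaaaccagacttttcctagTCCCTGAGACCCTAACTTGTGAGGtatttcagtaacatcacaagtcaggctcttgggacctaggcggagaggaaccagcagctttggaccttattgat

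The listed mature sequences do not all begin where the known miRNAs do, which matters for any match by seed. Below, capitals mark the family seeds ACCCGTA for miR-99, GAGGTAG for let-7 and CCCTGAG for miR-125, which a search found on the sense strand.
Candidate_135 (miR-99a-5p): aaACCCGTAgatccgatcttgtggt
Candidate_134 (let-7): gttGAGGTAGtaggttgtatggttt
Candidate_80 (miR-125b-5p): tCCCTGAGaccctaacttgtgagg
Candidate_136 (miR-99a hairpin, 3p arm): caagctcgcttctatgggtctgt
The seed began at base 2 in the listed miR-125b-5p, at base 3 in miR-99a-5p and at base 4 in let-7. The last pair were 25 bases long, which was the longest length in the bat list and was shared by 143 of its candidates, or 18.8%. Of the 16 bat candidates with at least 1000 reads, members included, 15 had a mature sequence of this length. No other bat candidate listed the same mature sequence as a member.

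MiR-99a-5p was the second most read candidate of the bat list, and the cluster held 12.9% of all listed bat reads. Candidate_135 lay at ALEH01062116.1, 4037 to 4171, on the plus strand, with its mature sequence at 4072 to 4096, and had 8100 reads. Only Candidate_602, with 9487 reads, had more. MiR-125b-5p, at ALEH01062117.1, 7250 to 7382, on the plus strand, with its mature sequence at 7285 to 7308, had 2341 reads and was number 8. Let-7, at ALEH01062116.1, 4759 to 4903, on the plus strand, with its mature sequence at 4799 to 4823, had 1037 reads and was number 16. The 3p arm of the miR-99a hairpin, at 4110 to 4132, had 5 reads and shared place 309. The median bat candidate had 3 reads, and 230 candidates rested on 1 read.

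Within the cluster the reads fell in the order miR-99a, miR-125b, let-7. Of the 11483 cluster reads, miR-99a-5p took 70.5% (95% interval 69.7 to 71.4), miR-125b-5p 20.4% (19.7 to 21.1) and let-7 9.03% (8.51 to 9.57). These shares and the ratios below take all reads of miR-125b-5p as the cluster's own, which the list cannot show. Intervals are by the exact Clopper-Pearson method and allow for counting error alone, as reads without molecular identifiers are not independent molecules. MiR-99a-5p had 3.46 times the reads of miR-125b-5p (3.30 to 3.62) and 7.81 times those of let-7 (7.32 to 8.34), and miR-125b-5p had 2.26 times those of let-7 (2.10 to 2.43). The intervals of the 3 shares do not overlap, but they treat each read as an independent draw. Spread between animals was not measured, and capture of small RNAs into a library can differ by sequence, which was not tested.

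The cluster's share of listed bat reads had an interval of 12.7 to 13.1%. Some bat candidates list identical mature sequences, so the sum of listed reads may count the same reads repeatedly. With each identical mature sequence counted once, the share was 14.7%, outside that interval. By the authors' deposited fractions, which divide by all reads in their analysis, miR-99a-5p stood at 8.2%, miR-125b-5p at 2.4% and let-7 at 1.0%, 11.6% in all. That total of reads lay between 98889 and 99340, as bounded from the counts and rounded fractions of the list, whose own reads sum to 89091.

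**Figure D1:**
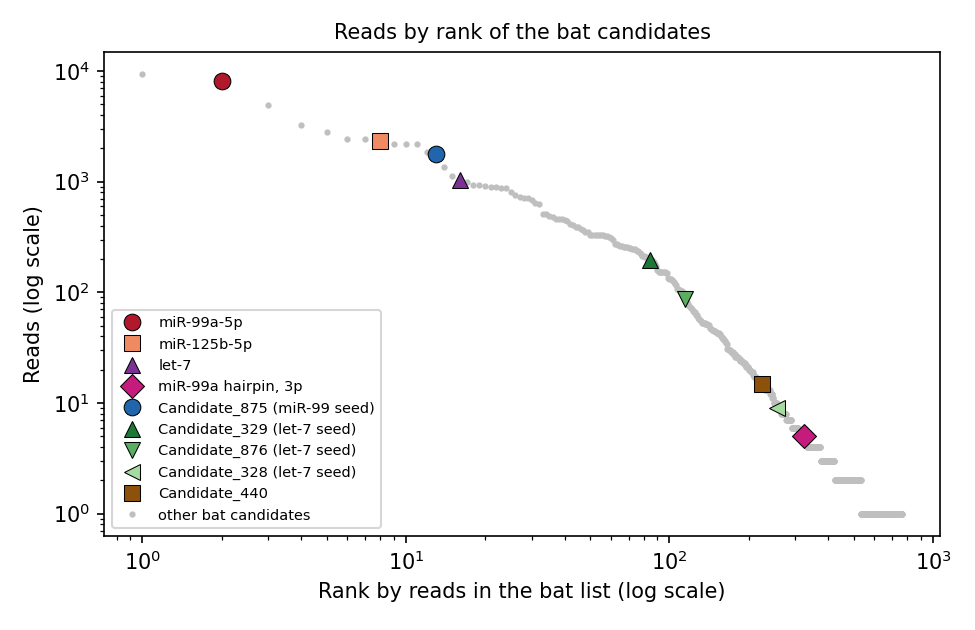
Reads of each of the 762 bat candidates (vertical axis, log scale) against rank (horizontal axis, log scale), with the cluster members, candidates sharing a family seed, and Candidate_440 coloured. MiR-99a-5p stands at rank 2, miR-125b-5p at 8 and let-7 at 16, while the 3p arm of the miR-99a hairpin lies among candidates with 5 reads.

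Unique reads, the number of distinct read sequences at a candidate, kept the order of the members but narrowed their distances. They numbered 144 at miR-99a-5p, 88 at miR-125b-5p, 64 at let-7 and 5 at the 3p arm, which were 47.8%, 29.2%, 21.3% and 1.66% of the 301 in the cluster. MiR-99a-5p therefore had 2.25 times the unique reads of let-7, against 7.81 times its reads. Each distinct sequence stood for 56.2 reads on average at miR-99a-5p, 26.6 at miR-125b-5p and 16.2 at let-7, and for 1 read at the 3p arm.

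Unique reads went up with reads over the whole list, so each member was set beside the 10 bat candidates nearest to it in reads. MiR-99a-5p, number 2 of the list in unique reads too, had 144 where its neighbours had 58 to 148 with a median of 90.5. MiR-125b-5p had 88, where its neighbours had 28 to 148 with a median of 93. Let-7 had 64, and its neighbours had 43 to 81 with a median of 69.5. All 3 lay inside the range of their neighbours. For miR-99a-5p those neighbours reached down to 2198 reads, because few candidates had as many, and they included miR-125b-5p. Those of miR-125b-5p included Candidate_875, which has the miR-99 seed and is described below. The neighbours of miR-99a-5p and of miR-125b-5p included Candidate_493 and Candidate_97, both with 2451 reads and 87 unique reads. They also included Candidate_155, Candidate_909 and Candidate_910, all with 2198 reads and 93 unique reads. These may be the same reads listed at several places, so both medians may count them repeatedly. The ends of the ranges came from other candidates.

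**Figure D2:**
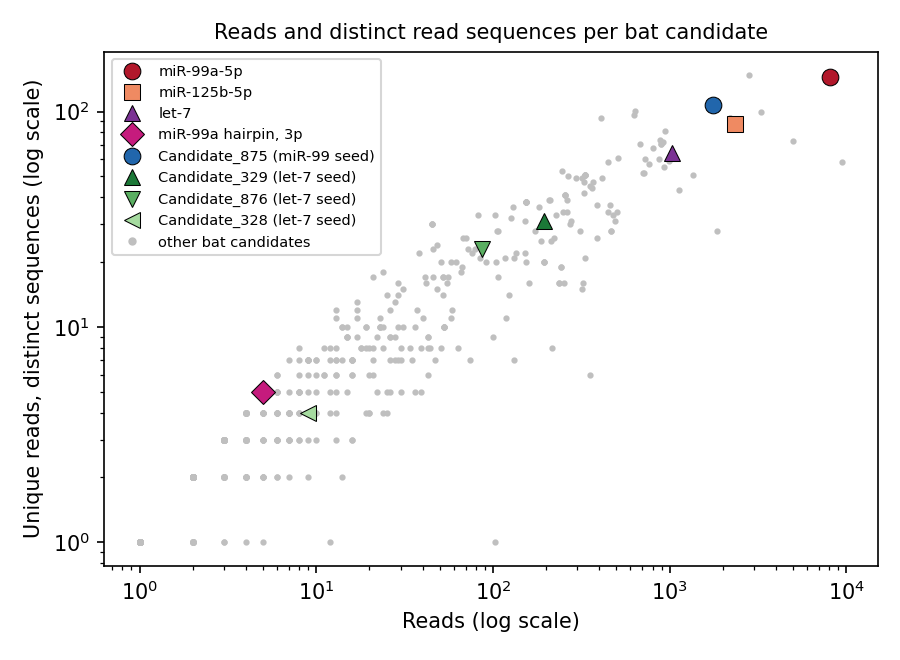
Distinct read sequences (vertical axis, log scale) against reads (horizontal axis, log scale) for each bat candidate, with cluster members and candidates of the same family seeds coloured. The members follow the cloud of the other candidates, with miR-99a-5p at 8100 reads and 144 sequences at its upper right.

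MiR-99a and let-7 lay close together, in the same direction. Their listed mature sequences began 727 bases apart on ALEH01062116.1, miR-99a first, and 587 bases separated their hairpins. No bat candidate was listed on the minus strand of either contig. MiR-125b lay alone on ALEH01062117.1. Its distance to the others cannot be measured, because the lists do not join contigs, and consecutive contig numbers are not a distance.

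The order of the genes was available from RefSeq's table for another assembly of this bat, DD_ASM_mEF_20220401. It lists MIR99A, MIRLET7C and MIR125B on chromosome 3 with no other listed gene between them. Candidates were not aligned to that assembly, so the match rests on names, and no position from it is used here. Of the 580 contigs with a bat candidate, 476 held 1 candidate.

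**Figure D3:**
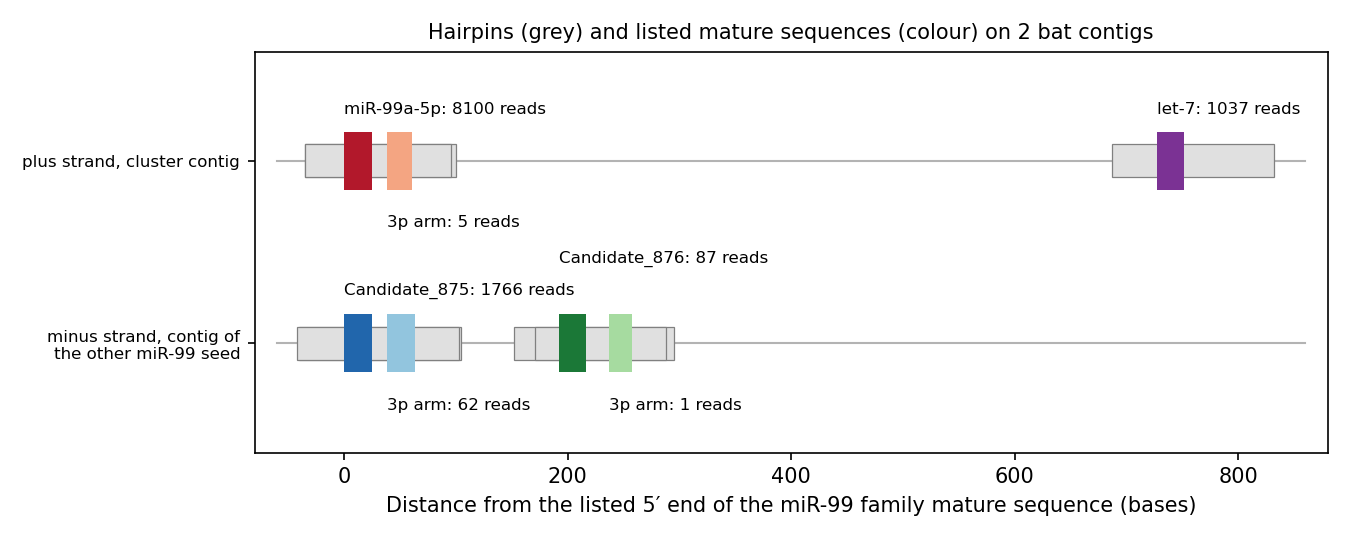
Hairpins (grey boxes) and listed mature sequences (coloured blocks, with their reads) on contig ALEH01062116.1 (above) and ALEH01109687.1 (below), in bases from the listed 5′ end of the miR-99 family sequence, read along the transcribed strand. Let-7 begins 727 bases after miR-99a above, and the let-7 seed hairpin begins 192 bases after the miR-99 seed hairpin below.

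The miR-99a hairpin was read almost wholly from its 5p arm. The 5p arm had 8100 reads and the 3p arm 5, so the 3p arm gave 0.0617% of both (0.0200 to 0.144). In the predicted fold both arms formed 17 base pairs with each other, 20 of the 25 bases of the 5p sequence and 19 of the 23 of the 3p sequence were paired, and 13 bases lay between the arms. The 3p sequence stuck out by 2 bases at the open end of the stem and the 5p sequence by 4 at the loop end. RNase III enzymes, which cut miRNA duplexes out of the stem, are known to leave short 3′ overhangs. The overhangs here were counted from the listed ends, and whether they reflect such cutting was not tested.

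The share of the 3p arm was the lowest of all 87 bat hairpins listed for both arms, which had a median of 8.07% on the lesser arm. Hairpins with no listed lesser arm are not among them, such as that of Candidate_602 with 9487 reads. Some of the 87 list identical sequences, and so the same reads, at more than 1 place. Among the 49 of these with at least 100 reads on the better arm the median was 2.01% and the highest 49.1%. A share as low as that of miR-99a can be seen only where the better arm has very many reads, and no other hairpin of the set had more than 4975 there. That next hairpin, Candidate_667, had 6 reads on its lesser arm, or 0.120%. For let-7 and miR-125b the list holds no candidate on the other arm. Reads too few or too scattered to be called a candidate would not be listed, so this does not show that such reads were absent.

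**Figure D4:**
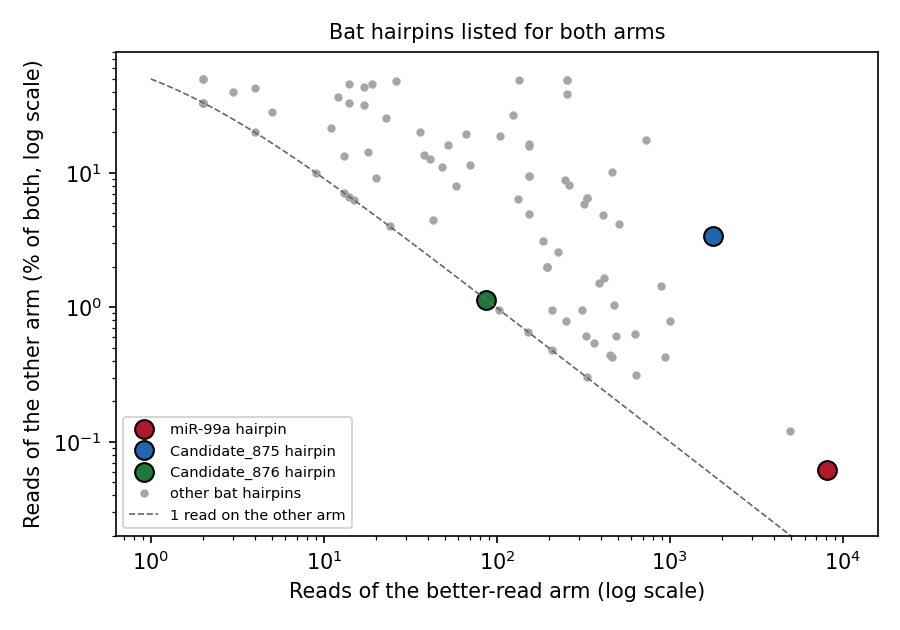
Reads of the lesser arm as percent of both arms (vertical axis, log scale) against reads of the better arm (horizontal axis, log scale) for 87 bat hairpins listed for both arms. The dashed line shows 1 read on the lesser arm; miR-99a lies lowest and farthest right, at 0.0617% and 8100 reads.

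The members were listed by all 5 models of the prediction program, as were 51.6% of bat candidates, and 3 of the 4 lay on the 5p side of their hairpin, as did 45.8% of the list. The program's name and models are explained with the processing. Of the 16 bat candidates with at least 1000 reads, members included, 15 had all 5 models and 12 lay on the 5p side. Some of the 16 had identical reads and unique reads, so they may be the same reads listed at several places.

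The hairpins of the cluster were neither GC-rich nor especially stable among the bat candidates. Their GC content was 48.1% for miR-99a, 46.2% for let-7 and 48.1% for miR-125b, against a median of 55.5% in the list. The predicted folding energy per 100 bases was -38.96 kcal/mol for miR-99a, -35.6 for let-7 and -31.1 for miR-125b, and a less negative value means a weaker fold. The list had a median of -41.4, so per 100 listed bases each of these hairpins folded more weakly than the median candidate. Candidate_136, a shorter cut of the miR-99a hairpin, stood at -40.15 and is not a separate hairpin. Both cuts had a total energy of -52.6 kcal/mol, over 135 and 131 bases, so listed length alone moved this value. MiR-125b stood at place 712 of 762 from the strongest. The 16 candidates with at least 1000 reads, repeated ones included, had a median of -38.85 and a median GC content of 49.7%, and 12 of them were weaker than the list's median. Folding energy goes with GC content, listed lengths differ between candidates, and the parts of these were not told apart.

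**Figure D5:**
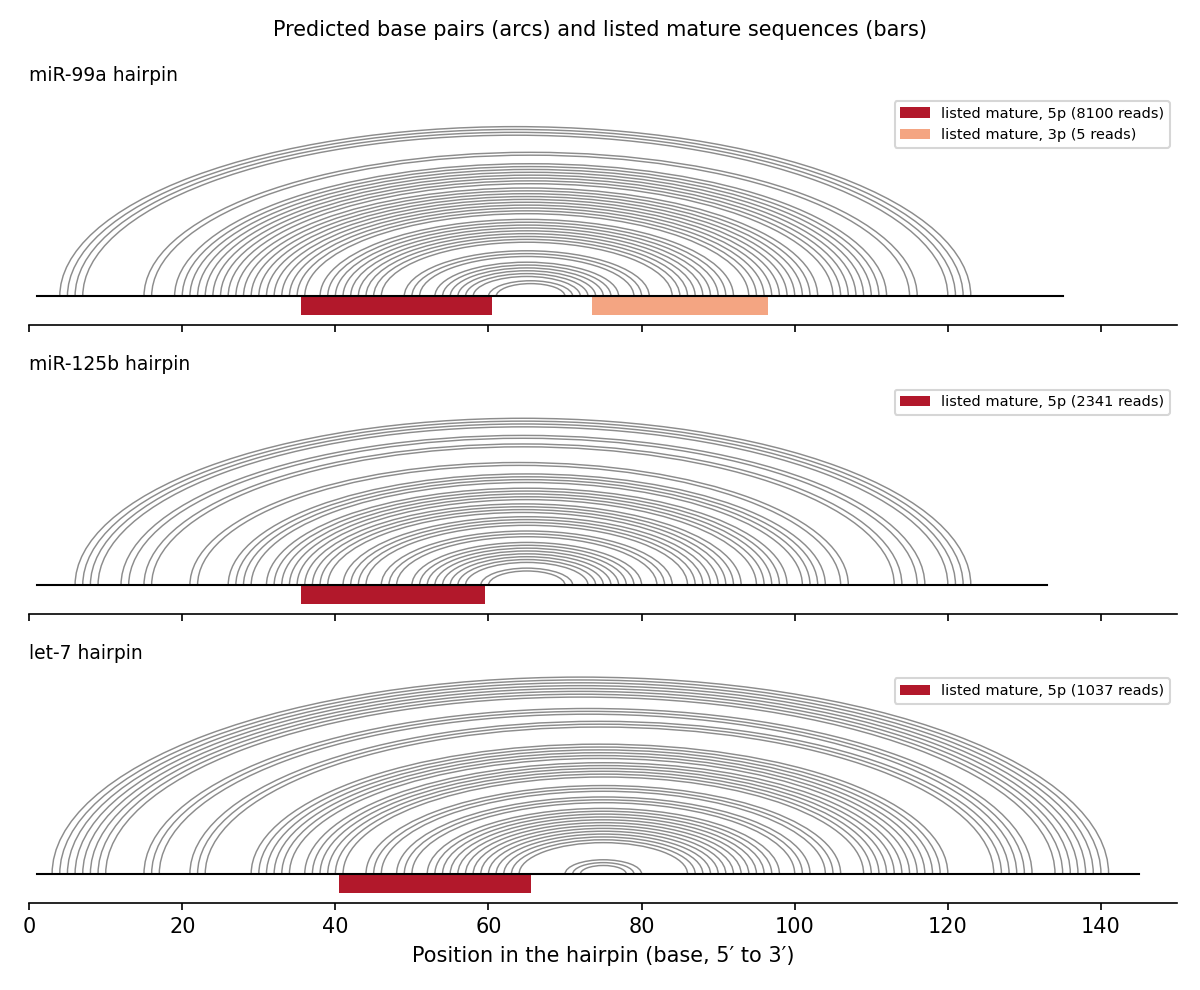
Predicted base pairs (arcs) along each hairpin (horizontal axis, base from the 5′ end) for miR-99a, miR-125b and let-7, with listed mature sequences as bars. Each 5p sequence lies in the stem before the loop, and the miR-99a hairpin also has the 3p sequence, with 5 reads, facing it.

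A second miR-99 seed and let-7 seed pair stood on contig ALEH01109687.1, on the minus strand, and had far fewer reads than the cluster. It is shown because its layout is the nearest to that of the cluster in the bat list, with 4 rows, and capitals again mark the listed mature sequences on both arms.
Candidate_875: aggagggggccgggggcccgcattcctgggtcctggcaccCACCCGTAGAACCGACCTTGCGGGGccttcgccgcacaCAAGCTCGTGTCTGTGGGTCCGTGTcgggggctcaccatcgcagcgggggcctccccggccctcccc
Candidate_876: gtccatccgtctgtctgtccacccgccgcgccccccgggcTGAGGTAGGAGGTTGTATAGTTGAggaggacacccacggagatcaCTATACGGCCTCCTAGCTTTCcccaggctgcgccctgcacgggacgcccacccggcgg
MiR-99a-5p had 8100 reads, and Candidate_875, at 1391 to 1535, had 1766, so miR-99a-5p had 4.59 times as many (4.36 to 4.83). Let-7 of the cluster had 1037 reads and Candidate_876, at 1201 to 1343, had 87, a ratio of 11.9 (9.57 to 15.0). Unique reads stood closer, at 144 for miR-99a-5p and 107 for Candidate_875, and at 64 for let-7 and 23 for Candidate_876. Candidate_875 was number 13 of the list in reads and number 3 in unique reads. That placed it ahead of the cluster's let-7 in both, and ahead of miR-125b-5p in unique reads. In reads, the miR-99 seed led on both contigs. It led by 7.81 times over let-7 in the cluster and by 20.3 times (16.4 to 25.5) on ALEH01109687.1. These intervals do not overlap, but they allow for counting error alone.

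The pair differed from the cluster in spacing, composition and use of arms. The mature sequences began 727 bases apart in the cluster and 192 apart on ALEH01109687.1, where 47 bases separated the hairpins. GC content was 48.1% for the miR-99a hairpin and 73.8% for that of Candidate_875, and 46.2% for the let-7 hairpin and 67.1% for that of Candidate_876. The 3p arm held 0.0617% of reads in the miR-99a hairpin and 3.39% (2.61 to 4.33) in the Candidate_875 hairpin. There Candidate_877 had 62 reads against 1766. The intervals of these arm shares do not overlap either, and they too allow for counting error alone. Candidate_873, on the 3p arm of the Candidate_876 hairpin, had 1 read against 87, or 1.14% (0.0288 to 6.17). Overhangs at the open and loop ends were 5 and 5 bases in the Candidate_875 hairpin, and 1 and 4 in that of Candidate_876.

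The 5p sequences of miR-99a and Candidate_875 differed at 5 of 24 aligned bases, all but one of them after the seed. Counted from 1 at the first listed base of Candidate_135, the changes were A2C, T12A, T17C, T22C and T25G. Over the hairpins, 81 of 126 aligned bases were identical, or 64.3%. The listed 3p sequences, Candidate_136 and Candidate_877, shared bases 2 to 8. RefSeq lists MIR99B and MIRLET7E next to each other on chromosome 21 of its assembly, but no candidate was aligned to it.

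Let-7 had further relatives on contig ALEH01110955.1, again with fewer reads than the cluster's let-7. Candidate_329, at 4404 to 4538, had 195 reads, so the cluster's let-7 had 5.32 times as many (4.56 to 6.23). In unique reads they stood closer, at 64 for the cluster's let-7 and 31 for Candidate_329. Candidate_328, at 6669 to 6801, had 9 reads, and the mature sequences of this pair began 2265 bases apart. They are set beside the cluster's let-7 to show where the family differs, with the seed in capitals.
Candidate_134 (cluster let-7): gttGAGGTAGtaggttgtatggttt
Candidate_329: tGAGGTAGtagattgtatagttgtg
Candidate_876: tGAGGTAGgaggttgtatagttga
Candidate_328: aGAGGTAGtaggttgcatagtttt
From the first listed base of Candidate_134, Candidate_329 carried the changes G14A, G21A and T25G, Candidate_876 carried T11G, G21A and T25G, and Candidate_328 carried T3A, T18C and G21A. All 3 relatives thus carried G21A. Of the 1328 reads of the 4 bat candidates with the let-7 seed, the cluster's let-7 held 78.1% (75.8 to 80.3). Of the 9866 reads of the 2 with the miR-99 seed, miR-99a-5p held 82.1% (81.3 to 82.9).

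MiR-125b-5p was the only bat candidate whose listed mature sequence began with the miR-125 seed, but its sequence was not unique among the listed hairpins. The hairpin of Candidate_440, at ALEH01143251.1, 57641 to 57779, on the minus strand, held the first 22 of its 24 bases, in capitals here, and differed at the next base by G23T.
Candidate_440: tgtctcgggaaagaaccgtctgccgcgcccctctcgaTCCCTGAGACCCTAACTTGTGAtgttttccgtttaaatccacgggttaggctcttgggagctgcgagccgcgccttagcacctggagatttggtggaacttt
Candidate_440 was listed for its 3p arm, acgggttaggctcttgggagct, with 15 reads and 5 unique reads. No candidate was listed on its 5p arm, where the shared run lies. Reads of at most 22 bases from that run could come from either hairpin, so the 2341 reads of miR-125b-5p cannot be assigned to the cluster alone. For miR-99a-5p and let-7 the longest run in a bat hairpin on any other contig was 10 and 14 bases, so no such twin was listed.

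The letters of the miR-99 seed stood at base 2 to 4 of 0.262% of bat mature sequences, those of let-7 in 0.525% and those of miR-125 in 0.131%. Anywhere in the hairpin they were found in 0.525%, 0.787% and 2.76% of bat candidates. The match within a hairpin is thus least telling for miR-125, and a match is a description of letters.

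In the dog list the miR-99 seed had few reads, and in the horse list no mature sequence began with any of the 3 seeds. Dog positions are on CanFam3.1. Bat miR-99a-5p had 8100 reads, and the dog Candidate_23, on chromosome 31, 13258751 to 13258871, plus strand, had 3 reads and 2 unique reads of a sequence identical to the first 23 bases of the bat one. The dog Candidate_208, on chromosome 5, 12047348 to 12047448, plus strand, listed that same sequence with the same 3 reads and 2 unique reads, so these may be 1 set of reads listed at both places. Both dog hairpins held all 25 bases of bat miR-99a-5p.
Dog Candidate_23: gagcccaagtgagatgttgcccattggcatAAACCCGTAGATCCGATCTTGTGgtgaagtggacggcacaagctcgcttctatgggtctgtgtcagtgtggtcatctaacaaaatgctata
Dog Candidate_208: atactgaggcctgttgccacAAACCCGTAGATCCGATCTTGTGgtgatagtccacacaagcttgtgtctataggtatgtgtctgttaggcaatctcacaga
The hairpins show which dog copy is nearer, with the listed mature sequence in capitals. Candidate_23 was identical to the bat miR-99a hairpin at 115 of 121 aligned bases, or 95.04%, with no gap, and it held all 23 bases of the bat 3p arm. Candidate_208 was identical at 77 of 100 aligned bases, or 77.0%.

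The dog list held 2 let-7 seed candidates, neither with the sequence of the cluster's let-7. The cluster's let-7 had 1037 reads, while dog Candidate_262 had 72 and dog Candidate_43 had 19. Candidate_262, on chromosome 1, listed the same 24 bases as bat Candidate_328, which had 9 reads. No dog or horse mature sequence began with the miR-125 seed. The bat list is labelled as one of new microRNAs. The sources used here do not say whether known miRNAs were taken out of any list before deposit, and this was not tested. These values therefore compare the lists alone and not the amounts of these miRNAs in the species.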

How the data were processed

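Total RNA of snap-frozen adult testis was extracted with TRIzol, and the small RNA fraction was sequenced on Illumina instruments in single 50-base reads, per the labels. The lists are output of miRanalyzer, installed locally by the authors, a program that calls miRNA hairpins with 5 models. Per the authors' column key, the deposited counts are raw numbers of distinct sequences and of reads at each candidate. The score, also deposited, gives how many of the models called it. The fraction, as deposited, is a candidate's reads over the total read number and has 3 decimals. The submitters' processing notes name CanFam3.1 for all 3 species, but the bat rows carry ALEH contig names marked Eptesicus fuscus. The bat build was not named beyond those contigs, and trimming and mapping settings were not given in the sources used here. Whether a candidate lies in an exon, an intron or a UTR was not analysed here.

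Members are all rows of the 2 contigs. Members, lists and comparisons were chosen with earlier results of these data known. The names miR-99a, let-7 and miR-125b were given with the members. The naming rule took every candidate sharing bases 2 to 8 of a listed mature sequence with a member. That gave dog Candidate_23, dog Candidate_208 and bat Candidate_877, because listed starts are shifted. The other relatives were found by a seed starting at base 2, 3 or 4, or by the longest shared run, and were chosen after their values were seen. An arm is the side of the hairpin's midpoint. Folds are from RNAfold 2.7.2 at default settings, and hairpins were aligned with Biopython 1.88 with free end gaps. Python 3.11.15, pandas 2.3.3, numpy 2.4.6, scipy 1.17.1 and matplotlib 3.10.9 were used. The matching and arm steps were tested on simulated data.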

Additional observations from a re-analysis of the deposited data

How the results depend on the processing

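The cluster's share of listed bat reads was 12.9%, with all reads of miR-125b-5p counted as the cluster's own. It was 14.7% with each identical mature sequence once, 13.9% among candidates of all 5 models, 14.4% without the most read candidate and 11.6% by the deposited fractions, the last chosen after seeing the data. It stayed inside its interval among candidates with at least 10 reads and without Candidate_136. By unique reads in place of reads, the shares within the cluster were 47.8% for miR-99a-5p, 29.2% for miR-125b-5p and 21.3% for let-7, in the same order. With listed bases 2 to 8 as the family rule, each 5p member was alone in the bat list and so held 100% of its family's reads. A seed starting at base 2, 3 or 4, chosen after seeing the data, gave 82.1% for miR-99a and 78.1% for let-7, and at most 2 mismatches over 18 bases gave 78.1% for let-7. The other family settings left the share inside its interval. The first rule missed relatives because their listed starts are shifted against the members'. The distance between miR-99a and let-7 was 727 bases from start to start and 587 between hairpins. No paired analysis was possible because 1 list per species was analysed. Depth limits the 3p arm of miR-99a, which rests on 5 reads, and the dog miR-99 seed values, which rest on 3.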
